A study of Mus musculus with 8 samples.

Results

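Semaphorins and their receptors were examined in cultured mouse neurons with and without NUAK1, a kinase related to AMPK. The set comprised 31 genes, chosen by symbol from the 32726 gene identifiers in the count table, and all 31 were present. Of these, 20 encode semaphorins (7 of class 3, 6 of class 4, 2 of class 5, 4 of class 6 and 1 of class 7). The remaining 11 encode receptors, of which 4 are A plexins, 3 are B plexins, 1 is plexin C1, 1 is plexin D1 and 2 are neuropilins. Poly-A RNA was sequenced from 4 Nuak1 KO libraries (KO1 to KO4) and 4 WT libraries (WT1 to WT4), all from neurons of embryos kept for 5 days in vitro in serum-free medium. The study describes constitutive knockout animals and cortical cultures, whereas the tissue label of every library reads cortex or hippocampus. The labels also carry a sequencing lane (A for KO1, KO4, WT1 and WT3, B for KO2, KO3, WT2 and WT4) and a strain label (BJ for KO1 to KO3, BK for KO4, WT2 and WT4, BO for WT1, BQ for WT3), the meaning of which they do not give.

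Semaphorins are guidance ligands. Class 3 members are secreted, whereas classes 4 to 6 are held in the membrane and class 7 is anchored to it through a lipid. Plexins are the receptors that carry the signal into the cell, through a cytoplasmic domain that acts on small GTPases. Most class 3 semaphorins cannot bind plexins well on their own and use neuropilins as the ligand-binding subunit of a complex with A plexins, whereas most membrane-bound semaphorins bind plexins directly. In cortical neurons these signals steer growing axons and dendrites and can repel, attract or prune their branches.

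The libraries held 31247078 to 67155004 counts, with a median of 39224504, and none duplicated another. Nuak1 itself, in CPM (read counts scaled to the library total), averaged 2.37 with an SD of 0.317 over the KO libraries and 69.5 with an SD of 13.2 over the WT libraries, which matches the genotype labels. KO1 and WT1 stood apart from the other libraries on the first principal component (51.9% of the variance), at −27.6 and −28.4 against 0.073 to 22.6. Summed neuron markers (8 genes) spanned 7574 to 8651 CPM over the KO libraries and 7661 to 8757 CPM over the WT libraries, and glutamatergic cortical markers 879 to 1114 CPM and 873 to 1098 CPM. Interneuron markers summed to between 208 and 346 CPM in KO and between 190 and 307 in WT, progenitor markers to between 371 and 459 in KO and 282 and 386 in WT, and astrocyte markers to between 907 and 1791 and between 978 and 1536. Oligodendrocyte lineage markers summed to between 509 and 611 CPM in KO and between 486 and 592 in WT. Microglia markers reached 26.3 and 43.0 CPM in KO2 and KO3 and stayed between 3.58 and 18.1 CPM elsewhere. Endothelial markers summed to at most 4.03 CPM and mural and fibroblast markers to between 8.92 and 50.0 CPM. No marker list had a gene past an adjusted p of 0.05. The log2 fold change was above 0 for 7 of 8 astrocyte markers (median 0.15) and for 7 of the 8 microglia markers that could be tested (median 1.36). It was below 0 for 3 of 8 interneuron markers (median 0.16) and 5 of 8 neuron markers (median −0.050). Oligodendrocyte lineage markers had 4 of 8 below 0 (median 0.0036). Tested mural and fibroblast markers had 2 of 7 below 0 (median 0.34) and endothelial markers 2 of 3 (median −0.038). Gfap, an astrocyte filament protein, averaged 107 CPM in KO (SD 95.9) and 28.0 in WT (SD 21.7). Of the glutamatergic markers, 3 of 8 had a log2 fold change above 0 (median −0.017), with Slc17a7, a vesicular glutamate transporter, at −0.32 and at −0.12 without KO1 and WT1. Values were above 0 for 6 of 9 progenitor markers (median 0.017), with Top2a, a marker of dividing cells, at 0.47 and at 0.34 without that pair. The part of these markers in the values of the members was not tested. In bulk RNA, fewer cells of a type and less RNA per cell cannot be told apart.

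Nearly the whole ligand and receptor set was detected in these cultures. On the scale of CPM per kilobase of exon, the mean level over the 8 libraries ran from 58.5 for Plxna1 down to 0.0204 for Sema3g. The A plexins, the partners of neuropilins and of class 6 semaphorins, held 4 of the 5 highest places, with Plxna3 at 50.6, Plxna2 at 41.2 and Plxna4 at 36.6. Among ligands Sema4g was highest at 47.9, followed by Sema7a at 24.8 and Sema4c at 20.9. Plxnc1, the receptor of SEMA7A, stood at 32.0. The neuropilins were far lower per length than the A plexins, with Nrp1 at 11.7 and Nrp2 at 5.79. Secreted class 3 ligands stood in the lower part of the order, from Sema3f at 8.11 through Sema3c at 5.40, Sema3a at 4.26, Sema3e at 2.31 and Sema3d at 1.31 to Sema3b at 0.239. In this order each gene overlapped the next over the 8 libraries, except that Sema3d lay above Plxnb3 (0.286) and Sema3b above Sema3g in every library. Sema3g had only 1 to 9 counts per library, did not pass the filter on low counts and is the single member not tested. Of the 30 tested, Sema3b had the fewest, at 18 to 75 counts per library, while Plxna2 had 19826 to 44589 and Plxna1 9785 to 48995.

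**Figure D1:**
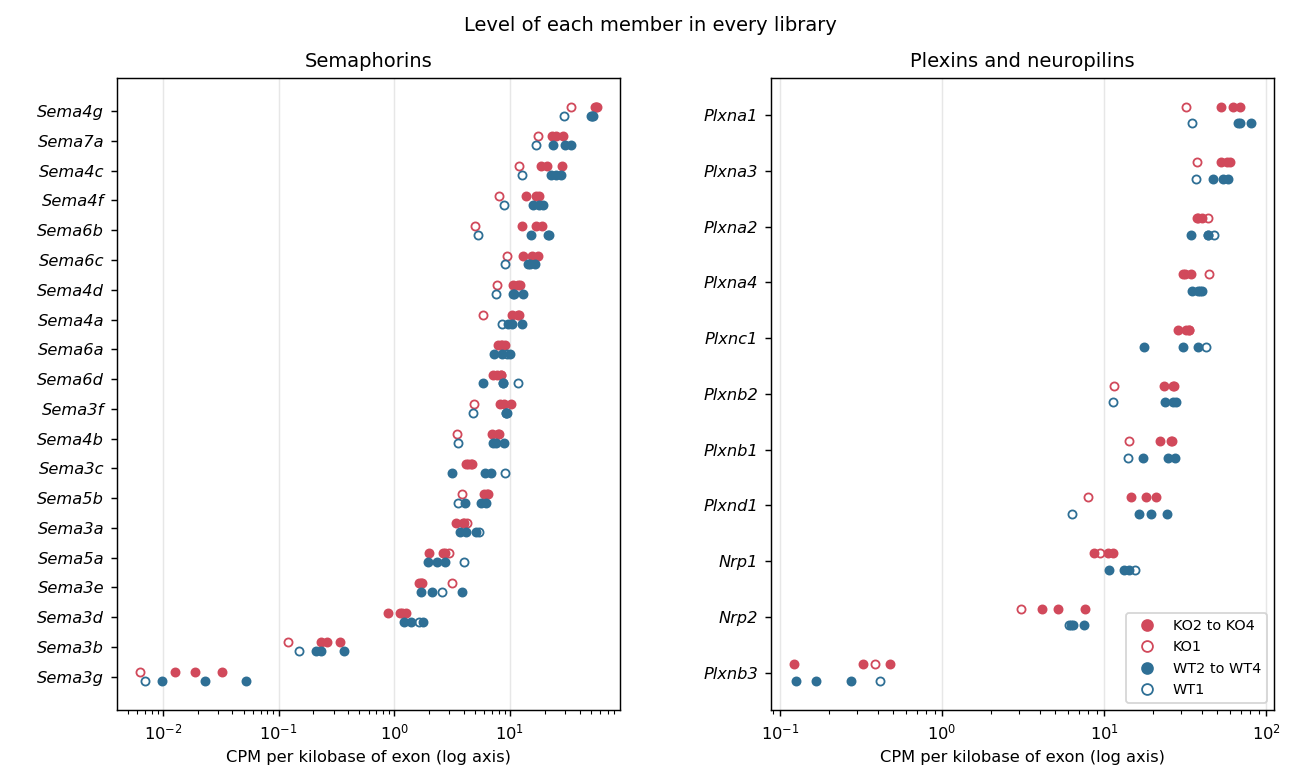
Level of each of the 31 genes in every library, in CPM per kilobase of exon on a log axis, ordered by mean level, with KO in red, WT in blue and open circles for KO1 and WT1. The open circles lie to the left of the filled ones for the highest semaphorins and for Plxna1, whereas the 2 genotypes overlap for every gene.

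The comparison of KO with WT asks whether the set depends on NUAK1 while axons are still growing. None of the 30 tested members passed an adjusted p of 0.05 in the edgeR quasi-likelihood test with Benjamini-Hochberg (BH) adjustment, where adjusted p ran from 0.249 to 0.999 and over all 16272 genes tested that rule called 8, or 0.0492%. An unadjusted p under 0.05 was reached by 3 of 30 members, against 10.6% of all genes. DESeq2 called 1 of 29 members, Nrp1 (adjusted p 0.0123), where 1.25% of all genes were called. The study's lower threshold was an absolute log2 fold change above 0.25 with an unadjusted p under 0.05, applied to DESeq2 results. By edgeR, 3 of 30 members were lower in KO at that threshold (Sema3a, Sema3d and Nrp1), against 3.53% of all genes. Higher in KO were 0, against 2.22%. At the study's stricter threshold, with an unadjusted p under 0.01, 1 member was lower by edgeR (Nrp1), against 1.48%. No member had CPM values that separated the genotypes completely in either direction, where 0.86% of all genes did so lower in KO and 1.54% higher. The fitted log2 fold change was below 0 for 24 of 30 members (16 of 19 ligands and 8 of 11 receptors), against 46.2% of all genes. The median log2 fold change was −0.11 over the members and 0.015 over all genes. The members with the lowest values were class 3 semaphorins and the neuropilins, with medians of −0.34 and −0.46, whereas class 4 had a median of −0.082 and the A plexins −0.15.

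**Figure D2:**
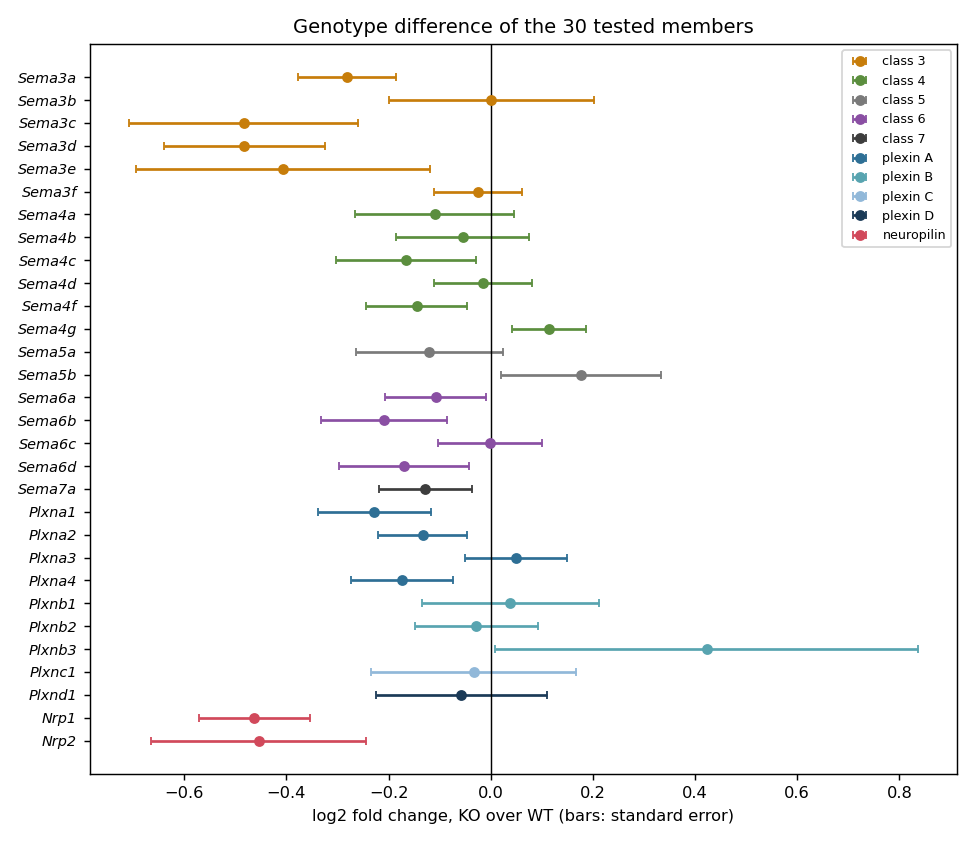
Log2 fold change of KO over WT for each of the 30 tested genes, coloured by class, with bars for the standard error. Sema3a, Sema3c, Sema3d, Sema3e, Nrp1 and Nrp2 lie between −0.28 and −0.48, most other genes lie within 0.23 of 0, and Plxnb3 at 0.42 has the widest bar.

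Neuropilin 1 (Nrp1, ENSMUSG00000025810, GRCm38 chromosome 8, 128358591 to 128505476), the binding receptor for SEMA3A and also a co-receptor for VEGF, had the smallest p of the set. It was measured at 55.5, 62.2, 66.9 and 51.1 CPM in KO1 to KO4 and at 91.2, 63.7, 84.1 and 78.1 CPM in WT1 to WT4. Only KO3 and WT2 crossed over, so 3 WT libraries lay above every KO library. The log2 fold change was −0.46 (SE 0.11, edgeR adjusted p 0.249). It was −0.74 with the lane A libraries alone, −0.20 with the lane B libraries alone and −0.37 without KO1 and WT1.

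Neuropilin 2 (Nrp2, ENSMUSG00000025969, GRCm38 chromosome 1, 62703317 to 62818692), which binds SEMA3C and SEMA3F, varied widely between KO cultures. Its level was 29.1, 39.6, 72.5 and 49.3 CPM in KO1 to KO4 and 57.4, 71.9, 61.2 and 59.1 CPM in WT1 to WT4. The 3 lowest KO libraries lay below all WT libraries, but KO3 was the highest of the 8. The log2 fold change was −0.45 (SE 0.21, edgeR adjusted p 0.496). It was −0.23 without WT1, −0.29 without KO1 and −0.68 without KO3. Per kilobase, both neuropilins together summed to 12.5, 14.7, 19.0 and 13.8 CPM in KO1 to KO4 and to 21.5, 18.4, 20.7 and 19.4 in WT1 to WT4. KO3 again was the one KO library within the WT range.

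Sema3a (ENSMUSG00000028883, GRCm38 chromosome 5, 13124822 to 13603485) encodes the classical repellent of cortical axons that acts through NRP1. It was measured at 42.9, 34.5, 40.3 and 39.6 CPM in KO and at 54.9, 42.3, 37.8 and 51.7 CPM in WT1 to WT4. WT1 and WT4 lay above all KO libraries, and WT2 and WT3 lay among them. The log2 fold change was −0.28 (SE 0.096, edgeR adjusted p 0.37).

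Sema3d (ENSMUSG00000040254, GRCm38 chromosome 5, 12383161 to 12588953), another secreted ligand, was present at a low level. Its values were 8.16, 7.78, 6.12 and 8.85 CPM in KO and 11.4, 12.3, 8.47 and 9.61 CPM in WT. Only KO4 exceeded a WT library, WT3. The log2 fold change was −0.48 (SE 0.16, edgeR adjusted p 0.366), with −0.25 on lane A and −0.74 on lane B.

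Sema3c (ENSMUSG00000028780, GRCm38 chromosome 5, 17574816 to 17730268) encodes a ligand that attracts cortical axons. It was close to constant in KO, at 31.1, 30.1, 33.1 and 33.5 CPM, and varied widely in WT, at 65.4, 43.8, 22.7 and 48.8 CPM. All WT libraries but WT3 lay above all KO libraries, and WT3 was the lowest of the 8. The log2 fold change was −0.48 (SE 0.22, edgeR adjusted p 0.496), and without WT3 it was −0.72 with an adjusted p of 0.0317. Without KO1 it was −0.27 (edgeR adjusted p 0.751), the smallest of the values with 1 library left out. It is described here although it did not meet the naming rule, having been chosen after its values were seen.

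Of the other secreted ligands, Sema3e had a log2 fold change of −0.41 (SE 0.29), its CPM ranging from 12.4 to 23.8 over KO and from 12.9 to 29.1 over WT. Sema3f and Sema3b, the class 3 genes of high GC content, stood at −0.024 (SE 0.086) and 0.0011 (SE 0.20). Per kilobase and summed over the class, class 3 ligands reached 18.0, 18.9, 20.4 and 22.1 in KO1 to KO4 and 23.8, 23.4, 21.7 and 25.0 in WT1 to WT4. Only KO4 and WT3 crossed over in that sum. The sum of the 6 class 4 ligands, in contrast, was 111 in both genotypes (SD 28.0 in KO and 27.8 in WT, n = 4 each). Without division by length the class 3 sum ran from 115.0 to 131.7 CPM in KO and from 132.1 to 168.8 CPM in WT. Whether the genotypes overlapped in it thus depended on that division.

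The windows around annotated transcription starts are shown for the 4 secreted ligands and 2 neuropilins with the lowest fold changes, with Sema4g, the highest ligand, beside them for comparison. RefSeq gave a window of 300 bases (mostly upstream of a start, GRCm38.p6) for 26 of the 31 genes, 37 windows in all. The windows were searched on both strands for the GC box (GGGCGG), the CCAAT box, the TATA box (TATAAA), the cyclic AMP response element (TGACGTCA) and the E box (CACGTG), overlapping matches being counted apart, and matches are in capitals.
Sema3a (chr5:13396534-13396833, + strand): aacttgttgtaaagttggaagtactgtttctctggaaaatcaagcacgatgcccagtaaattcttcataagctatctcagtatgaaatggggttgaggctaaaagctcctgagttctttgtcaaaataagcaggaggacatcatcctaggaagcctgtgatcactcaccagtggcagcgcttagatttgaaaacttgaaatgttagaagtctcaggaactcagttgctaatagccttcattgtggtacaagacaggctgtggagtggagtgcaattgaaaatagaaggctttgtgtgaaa
Sema3c (chr5:17574566-17574865, + strand): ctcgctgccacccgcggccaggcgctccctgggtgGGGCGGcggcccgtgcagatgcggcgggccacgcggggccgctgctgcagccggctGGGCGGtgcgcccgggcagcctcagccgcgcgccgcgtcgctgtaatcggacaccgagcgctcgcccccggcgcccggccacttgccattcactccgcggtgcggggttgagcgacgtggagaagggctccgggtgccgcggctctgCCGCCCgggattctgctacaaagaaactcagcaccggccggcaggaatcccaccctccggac
Sema3d (chr5:12382916-12383215, + strand): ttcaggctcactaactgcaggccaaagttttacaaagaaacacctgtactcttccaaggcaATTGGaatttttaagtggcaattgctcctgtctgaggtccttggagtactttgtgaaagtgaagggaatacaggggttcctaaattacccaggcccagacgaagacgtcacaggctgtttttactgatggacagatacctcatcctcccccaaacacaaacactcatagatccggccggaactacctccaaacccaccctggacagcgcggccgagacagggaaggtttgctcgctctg
Sema3e (chr5:14025026-14025325, + strand): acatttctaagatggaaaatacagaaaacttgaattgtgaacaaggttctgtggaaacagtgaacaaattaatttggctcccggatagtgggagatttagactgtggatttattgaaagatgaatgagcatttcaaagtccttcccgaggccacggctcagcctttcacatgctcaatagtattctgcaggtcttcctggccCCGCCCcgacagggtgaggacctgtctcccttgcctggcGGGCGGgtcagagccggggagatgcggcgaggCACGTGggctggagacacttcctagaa
Nrp1 (chr8:128358823-128359122, + strand): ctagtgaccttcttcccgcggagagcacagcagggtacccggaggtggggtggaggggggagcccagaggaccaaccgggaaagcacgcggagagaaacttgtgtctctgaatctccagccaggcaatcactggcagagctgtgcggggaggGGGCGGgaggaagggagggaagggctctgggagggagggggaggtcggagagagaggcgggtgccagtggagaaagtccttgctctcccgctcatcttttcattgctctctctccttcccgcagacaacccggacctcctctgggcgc
Nrp2 (chr1:62703067-62703366, + strand): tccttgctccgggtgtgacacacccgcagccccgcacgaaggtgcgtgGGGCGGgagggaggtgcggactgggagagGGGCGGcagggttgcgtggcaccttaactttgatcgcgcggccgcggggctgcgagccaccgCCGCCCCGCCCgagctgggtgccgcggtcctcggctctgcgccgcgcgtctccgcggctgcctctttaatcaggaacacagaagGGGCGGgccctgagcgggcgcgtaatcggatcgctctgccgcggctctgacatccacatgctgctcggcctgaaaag
Sema4g (chr19:44989094-44989393, + strand): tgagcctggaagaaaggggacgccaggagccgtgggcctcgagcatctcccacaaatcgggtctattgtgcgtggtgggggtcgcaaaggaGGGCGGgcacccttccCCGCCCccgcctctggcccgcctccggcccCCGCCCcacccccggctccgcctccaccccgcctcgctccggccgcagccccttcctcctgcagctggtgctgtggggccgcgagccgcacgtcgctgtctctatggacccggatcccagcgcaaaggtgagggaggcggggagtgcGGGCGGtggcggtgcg
The Sema3a window surrounds an internal start, 271962 bases into the RefSeq span of the gene, so it does not show the first start of Sema3a. The other 6 starts lay within 601 bases of the beginning of the gene's span. The 6 genes with the lowest fold changes did not look alike in these windows. Sema3c held 42 CpG dinucleotides and 3 GGGCGG matches, and Nrp2 held 37 and 5, close to the 30 and 4 of Sema4g. Nrp1 held 14 CpG and 1 GGGCGG match, and Sema3e held 11 and 2 with 1 E box. Sema3d (8 CpG, 1 CCAAT match) and the internal Sema3a window (2 CpG) had no GGGCGG match. None of the 5 motifs searched was present in all 7 windows. GGGCGG was present in 27 of the 37 member windows (73.0%) and in 35.7% of all 32851 windows of the same length. CCAAT was present in 7 member windows (18.9%, against 37.4% of all), the E box in 3 (8.11%, against 7.15%), and neither the TATA box nor the response element in any (against 13.6% and 1.79% of all). A match is only a match of letters.

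Among the highest ligands the genotype differences were small. Sema4g (ENSMUSG00000025207, GRCm38 chromosome 19, 44988743 to 45003397), a class 4 transmembrane ligand, was measured at 164, 263, 277 and 270 CPM in KO1 to KO4 and 143, 253, 252 and 247 CPM in WT1 to WT4. Apart from KO1 and WT1, every KO library lay above every WT library by a narrow margin, and the log2 fold change was 0.11 (SE 0.072, edgeR adjusted p 0.591). With 1 library left out, the value ran from 0.066 (without WT3) to 0.15 (without WT2). Sema7a (ENSMUSG00000038264), the lipid-anchored ligand that promotes axon growth through integrins, was at 57.6, 76.6, 81.9 and 95.1 CPM in KO and 55.2, 97.8, 111 and 77.6 CPM in WT (log2 fold change −0.13, SE 0.090, edgeR adjusted p 0.635). Sema4c (ENSMUSG00000026121), a ligand of plexin B2, was at 55.0, 85.3, 96.3 and 128 CPM in KO and 58.2, 127, 105 and 114 CPM in WT (log2 fold change −0.17, SE 0.14, edgeR adjusted p 0.693). For both the genotypes overlapped, although WT2 and WT3 lay above every KO library for Sema7a. Sema4c had a log2 fold change of −0.074 without WT2 and −0.29 without KO4. Sema7a had one of −0.079 without WT2 and −0.19 without WT4. The remaining class 4, 5 and 6 ligands had log2 fold changes between −0.21 (Sema6b) and 0.18 (Sema5b).

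The A plexins, which transduce class 3 and class 6 signals, formed the main part of the receptor pool, at 63.1% ± 2.76 of summed receptor level per length in KO and 63.2% ± 1.65 in WT (SD, n = 4 each). Plxna1 (ENSMUSG00000030084, GRCm38 chromosome 6) was measured at 289, 479, 560 and 621 CPM in KO1 to KO4 and at 313, 730, 626 and 607 CPM in WT1 to WT4, with a log2 fold change of −0.23 (SE 0.11, edgeR adjusted p 0.501). WT2 and WT3 lay above all KO libraries, but WT4 lay below KO4, and without WT2 the log2 fold change was −0.13. Of the exon bases of Plxna1 in an older annotation, 10.7% overlap a gene on the opposite strand, and whether counting used strand is not stated. Plxna3 (ENSMUSG00000031398, chromosome X) was at 295, 417, 453 and 473 CPM in KO and 291, 430, 371 and 458 CPM in WT, with a log2 fold change of 0.049 (SE 0.10, edgeR adjusted p 0.889). Plxna2 (ENSMUSG00000026640, chromosome 1) was at 663, 573, 567 and 607 CPM in KO and 725, 664, 522 and 657 CPM in WT, with a log2 fold change of −0.13 (SE 0.087, edgeR adjusted p 0.606), and of −0.075 without WT2. The genotypes overlapped for all of these. Plxna4 stood at −0.17 (SE 0.099), its CPM ranging from 384 to 561 over KO and from 440 to 507 over WT. Plxnc1 lies on chromosome 10, as Nuak1 does, and stood at −0.033 (SE 0.20). WT3 had the lowest Plxnc1 value of the 8, at 125 CPM against 200 to 298 CPM in the others. The B plexins, receptors of class 4 ligands that act on RhoA, and Plxnd1, the receptor of SEMA3E, had log2 fold changes of −0.028 (Plxnb2), 0.038 (Plxnb1), 0.42 (Plxnb3) and −0.057 (Plxnd1).

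Ligands and receptors were then set against each other within each library. Ligands summed to 144, 207, 231 and 243 CPM per kilobase in KO1 to KO4 and to 154, 252, 231 and 224 in WT1 to WT4. Receptors summed to 238, 285, 315 and 313 in KO and to 255, 356, 288 and 322 in WT. The ratio of receptors to ligands was 1.42 ± 0.159 for KO and 1.44 ± 0.166 for WT (SD, n = 4 each), and the 2 means differed by less than the spread between cultures. The ratio split the libraries in another way, at 1.65 in both KO1 and WT1 and at 1.25 to 1.44 in the other 6. Neuropilin level per A plexin was 0.0828 ± 0.0131 in KO and 0.106 ± 0.0224 in WT (SD, n = 4 each), with overlap between the genotypes, and the amount of class 3 ligand per neuropilin was 1.35 ± 0.222 and 1.18 ± 0.119.

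**Figure D3:**
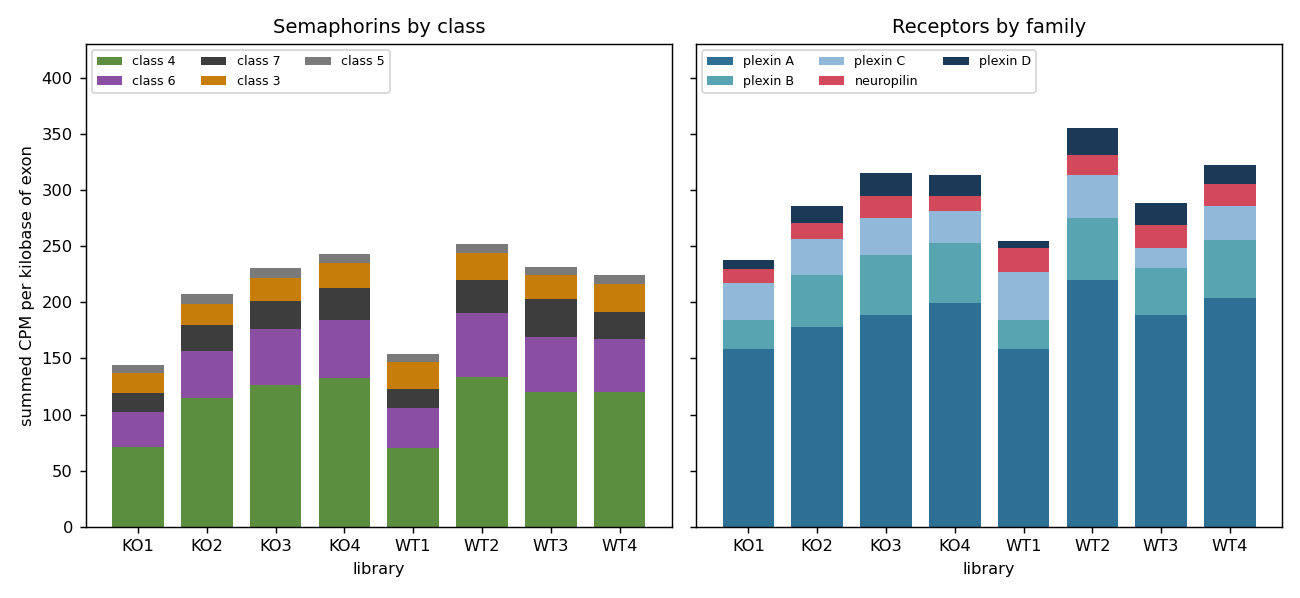
Summed level of semaphorins by class (left) and of receptors by family (right) in each library, in CPM per kilobase of exon. KO1 and WT1 have the shortest bars on both sides, at 144 and 154 for ligands and 238 and 255 for receptors, while the height of the bars does not separate KO from WT.

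The members also differed between the pair of libraries that stood apart and the rest. KO1 and WT1 were both below all other libraries for 17 of 30 members (12 ligands and 5 receptors), against 28.8% of all genes. Those 17 included all 6 class 4 ligands, Sema7a, Sema6b, Sema6c, Plxna1, Plxna3, Plxnb1, Plxnb2 and Plxnd1. They were both above all others for 1 member, Sema5a, against 20.5% of all genes. Sema6b showed the widest gap, with 19.9 and 21.1 CPM in KO1 and WT1 against 50.8 to 86.4 CPM in the others. The size of this gap went with the base composition of the transcripts. The log2 ratio of mean CPM in KO1 and WT1 over the other 6 had a Spearman correlation of −0.798 with transcript GC content over the 30 members, and of −0.793 over 13635 tested genes with a transcript. The median GC content was 57.4% in the 17 members that were low in both and 48.3% in the 12 whose pair did not stand apart. These correlations are across genes of the same libraries and are descriptions. Over the 30 members, GC content also had a Spearman correlation of 0.555 with the genotype log2 fold change, against 0.189 over all genes. The class 3 ligands had a median GC content of 42.2% and Nrp1 45.3%. With counts corrected for transcript GC content in place of the surrogate variable, an alternative added after seeing the data, the log2 fold change was −0.23 for Sema3a, −0.47 for Sema3c, −0.43 for Sema3d, −0.44 for Nrp1 and −0.46 for Nrp2, and the median of the members was −0.13. No named member passed the adjusted threshold in that fit. Without KO1 and WT1 the median of the members, in the model with the surrogate variable, was −0.095.

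**Figure D4:**
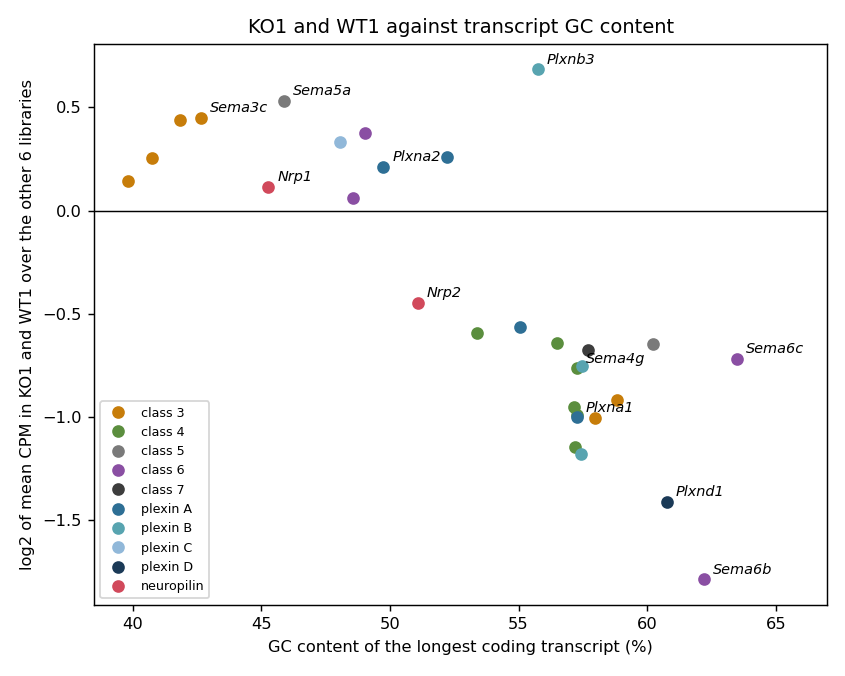
Log2 ratio of mean CPM in KO1 and WT1 over the other 6 libraries against GC content of the longest coding transcript, 1 point for each of the 30 tested genes, coloured by class. Genes above 53% GC lie below 0 except Plxnb3, and the class 3 ligands of low GC content lie above it.

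The lanes gave different pictures of which members were lower in KO. On lane B both KO libraries carry the strain label BJ and both WT libraries BK. On lane A no strain label holds both genotypes. Within a lane, genotype and strain label therefore cannot be told apart. On lane B (KO2 and KO3 against WT2 and WT4), 26 of 30 members had a log2 fold change below 0, against 50.0% of all genes, with a median of −0.20. On lane A, which holds KO1 and WT1, 18 of 30 did, against 50.6%, with a median of −0.050. Members lower in KO on both lanes numbered 15, against 28.8% of all genes, and included Sema3a, Sema3c, Sema3d, Sema3e, Nrp1 and Nrp2. Sema4g alone was higher on both, against 28.2% of all genes. At the lower threshold, lane B gave 7 members lower in KO (Sema3a, Sema3c, Sema3d, Sema4c, Plxna1, Plxna2 and Plxna4), against 4.62% of all genes, and 2 higher (Sema5a and Plxnb3), against 4.77%. On lane A, by contrast, Plxna1 stood at −0.051 and Plxna2 at −0.0011, against −0.43 and −0.28 on lane B. Sema5a, a ligand named here after its values were seen, had a log2 fold change of 0.27 on lane B and −0.47 on lane A. Lane A gave 1, Nrp1, against 0.443%. An adjusted p under 0.05 by edgeR was reached on lane B by Sema3c (log2 fold change −0.61, adjusted p 0.0293) and Plxnb3 (1.43, adjusted p 0.0359), against 0.599% of all genes. Plxnb3, a B plexin known from oligodendrocyte lineage cells and named here after its values were seen, was at 2.50, 2.11, 3.11 and 0.791 CPM in KO and 2.69, 0.819, 1.78 and 1.08 CPM in WT, and on lane A its log2 fold change was −0.47. Whether a member's difference itself depended on the lane was not tested.

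**Figure D5:**
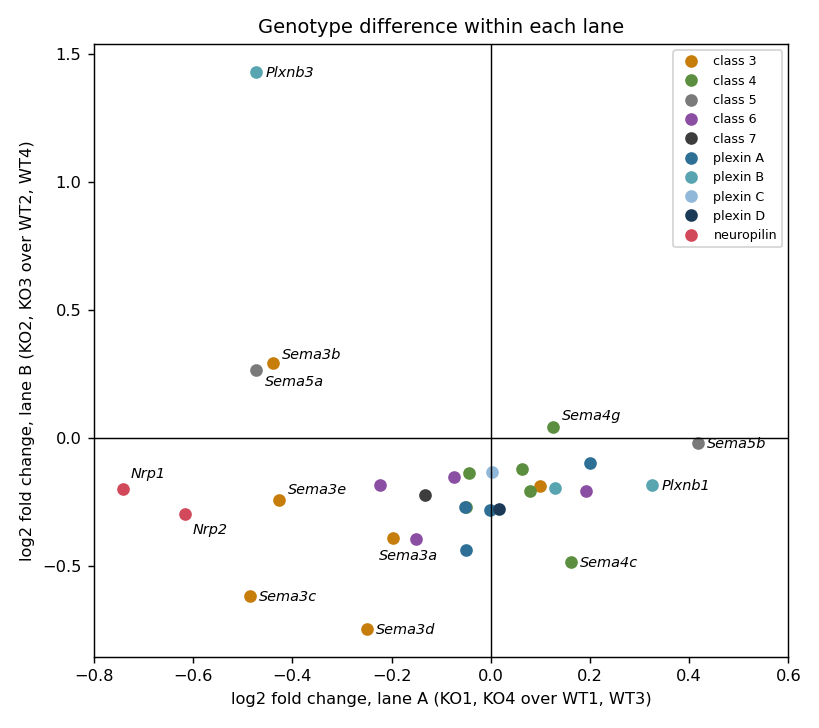
Log2 fold change of KO over WT within lane A (horizontal) and within lane B (vertical), 1 point for each of the 30 tested genes, coloured by class. Nrp1 and Nrp2 lie furthest left (−0.74 and −0.62), Sema3d and Sema3c lowest (−0.74 and −0.61), and Plxnb3 stands alone at 1.43 on lane B.

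Co-receptors and downstream proteins of the pathway were called at about the rate of all genes, of which 10.6% had an unadjusted p under 0.05. Of 15 co-receptors and shedding enzymes tested, 2 had an unadjusted p under 0.05, both lower in KO, and 0 passed the adjusted threshold by edgeR. The log2 fold change was below 0 for 12 of the 15 (median −0.090), against 46.2% of all genes. Met, a receptor tyrosine kinase that associates with B plexins and is prominent in cortical projection neurons, was at 484, 286, 284 and 322 CPM in KO and 600, 445, 328 and 353 CPM in WT (log2 fold change −0.38, SE 0.12, edgeR adjusted p 0.356). Nrcam, an adhesion molecule found in neuropilin complexes, was at 779, 686, 694 and 770 CPM in KO and 1131, 931, 623 and 870 CPM in WT (log2 fold change −0.31, SE 0.13, edgeR adjusted p 0.447). Met and Nrcam overlapped between genotypes, and for Nrcam WT3 was the lowest of the 8, as for Sema3c. Of 34 intracellular effectors, 3 were lower at an unadjusted p under 0.05 and 1 higher, and 0 passed the adjusted threshold. The log2 fold change was below 0 for 12 of the 34 (median 0.039). Rock2, a kinase downstream of RhoA, stood at −0.17 (SE 0.058), Arhgef12, the RhoA exchange factor bound by B plexins, at −0.16 (SE 0.060), and Mical1, an oxidoreductase that acts on actin downstream of A plexins, at −0.32 (SE 0.13). Without KO1 and WT1 the value of Mical1 was −0.076. Dpysl2, which encodes CRMP2, a mediator of the SEMA3A response, had a log2 fold change of 0.21 (SE 0.081), with 728, 732, 691 and 593 CPM in KO and 555, 606, 564 and 575 CPM in WT. Only KO4 fell within the WT range, and without KO1 and WT1 the log2 fold change was 0.12. Rac1, a GTPase that binds plexins and was named here after its values were seen, was the one effector whose genotypes did not overlap, against 1.54% of all genes higher in KO without overlap. It was at 178, 190, 184 and 196 CPM in KO and 177, 140, 177 and 170 CPM in WT (log2 fold change 0.14, SE 0.077, edgeR adjusted p 0.546).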

How the data were processed

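Poly-A RNA of 8 libraries was analysed (4 Nuak1 KO and 4 WT, grouped by the sample labels). The deposited values are raw read counts, which the authors made for each Ensembl gene. Per their methods and processing notes, reads were trimmed with cutadapt 1.10, ribosomal reads were discarded, the rest were aligned to mm10 with STAR 2.5.3a, and uniquely aligned reads were counted by HTSeq 0.6.1p1 in union mode. Use of strand in counting is not given in the sources used here, and read length is given differently by labels and methods. Reads that align to several places are not counted. P-values measure the spread between these cultures.

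Differences were tested by edgeR 4.0.16 under R 4.3.3 (filterByExpr, TMM, genotype plus 1 surrogate variable from sva 3.50.0, robust quasi-likelihood F test, BH over all tested genes). The standard error is the absolute log2 fold change divided by the square root of F. Counts of genes within a lane are over the 16029 genes tested in both lanes and in the fit of all libraries. Levels per length are CPM per kilobase of exon. The procedure was tested on simulated data, where unadjusted p-values held their level and the share of false calls after adjustment was somewhat above the nominal one, so adjusted p-values may be slightly too small. DESeq2 1.42.0, limma 3.58.1 (voom), other size factors and filters, lane, strain or replicate terms, each lane alone and each library left out were alternatives. GC content is that of the longest coding transcript in an older annotation, matched by identifier. Exon lengths and exon overlaps are from that annotation too, not from the one on which the reads were counted. RefSeq positions and promoter windows are of GRCm38.p6.

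Values in every library are given for members with an unadjusted p under 0.05 or no overlap between genotypes, for the 3 ligands and 3 receptors highest per length, for both neuropilins, and for Sema3c and Plxnb3, added after their values were seen. Members and lists were chosen with earlier results of these data known.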

Additional observations from a re-analysis of the deposited data

Results flagged for a closer look

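Of 60 groups of 4 libraries examined (30 genes in each genotype), 4 had a single library far from the other 3 by Dixon's test, where chance gives about 3 (1 in 20), and all 4 were in KO1 or WT1. Sema4g stood at 164 CPM in KO1 against 263 to 277 CPM in the other KO libraries, and at 143 CPM in WT1 against 247 to 253 CPM in WT2 to WT4. Sema3f stood at 16.7 CPM in WT1 against 32.2 to 32.6 CPM. Sema3e was the one value on the high side, at 23.8 CPM in KO1 against 12.4 to 13.1 CPM.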

How the results depend on the processing

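In the reported model 8 genes passed the adjusted threshold. The number was 4 with 0 surrogate variables, with 2, with lane as a term and with transcript GC correction. With no filter on low counts it was 45, and with DESeq2 168. It was 0 with the lane A libraries, 99 with those of lane B and 3 without KO1 and WT1. It ranged from 3 to 91 when 1 library was left out, the highest without WT3. The 3 members past the lower threshold became 6 with 2 surrogate variables, 5 with DESeq2, 1 within lane A and 9 within lane B. With 0 surrogate variables, lane as a term or unscaled library totals the number was 2. With 1 library left out it was 2 to 7, the highest again without WT3. No count is given with the strain label as a term. Only BK holds both genotypes, so in that fit the genotype value rests on KO4 against WT2 and WT4. Under these settings the median of the members stayed between −0.20 and −0.050. The mean ratio of receptors to ligands in KO was 2.46 without division by length.

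Replicate numbers were shared between genotypes, but the deviations of same-numbered libraries correlated at 0.800, 0.0122, 0.249 and 0.00225, which are not all above 0.1, so the numbers were not taken to pair the libraries. Replicate 1 of both genotypes is the pair that stood apart. With the replicate number as a replicate block, 3 genes passed the adjusted threshold, 4 members passed the lower one and the median of the members was −0.11.

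Over 23 alternatives the 11 named members gave 253 values, of which 243 kept their direction and side of the adjusted threshold. Plxna3 reversed to −0.020 (2 surrogate variables) and −0.095 (lane B alone). With 1 library left out it ranged from −0.051 (without WT3) to 0.11. Sema7a reversed to 0.095 with the strain term, and Sema4c to 0.068 (strain term) and 0.16 (lane A alone). The strain-term values rest on KO4 alone against WT2 and WT4. Nrp1 passed with no filter (adjusted p 0.0282) and with DESeq2, and Sema3c on lane B alone and without WT3. The cause of these changes was not tested. With 4 libraries a genotype, the SEs of the members ran from 0.072 to 0.41.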
